A study of Mus musculus with 6 samples.

Results

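The 10 genes Il6ra, Il6st, Il10ra, Il10rb, Il27ra, Il12rb1, Il12rb2, Ifngr1, Ifngr2 and Ifnar1 encode receptor chains for interleukin 6 (IL-6), IL-10, IL-12, IL-27 and the interferons. They were taken by gene symbol, 1 row each, from a table of 55840 mouse genes, and all 10 were among the 14919 genes with enough counts to be tested. The libraries came from mouse regulatory T cells (Tregs), a CD4 T cell population that restrains immune responses and depends on the transcription factor Foxp3. One group was labelled WT (3 libraries) and the other Exon2KO (3 libraries); the series title writes the second genotype as Foxp3 with a delta 2 mark and names spleen and lymph nodes as the source. The labels call the libraries of a group biological replicates. Age, sex, strain, the way the cells were sorted and the number of mice behind a library are not given in the sources used here.

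Each of these receptors signals through a complex of different chains. IL-6 binds Il6ra, on the cell or shed from it, and then recruits Il6st (gp130), the signalling chain that IL-27 also uses together with Il27ra. IL-12 needs Il12rb1 and Il12rb2, IL-10 binds Il10ra and recruits Il10rb, interferon gamma binds Ifngr1 and recruits Ifngr2, and type I interferons use Ifnar1 with Ifnar2. The chains carry no enzyme of their own: bound Janus kinases phosphorylate STAT factors, mostly STAT3 for IL-6 and IL-10 and STAT4 for IL-12. In Tregs, IL-10 signalling through STAT3 is known for its part in restraining IL-17 driven inflammation, and strong IL-6, IL-12 or interferon gamma signals are known to weaken the Treg state.

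Total counts ran from 17998216 to 21003496 per library, so 3 counts, taken as the smallest level a library can show, correspond to 0.141 to 0.169 CPM (counts per 1000000, on scaled library sizes); this covers counting error only. Libraries are named by genotype and by the number in their column (2, 6 or 20), since the columns could not be matched to the numbered sample titles. Of 6 Treg defining genes, Foxp3, Cd4 and Cd3e were abundant and not called different between genotypes, while Il2ra, Ctla4 and Ikzf2 were lower in Exon2KO, with log2 fold changes of -0.52, -0.85 and -0.66 (edgeR adjusted p = 0.0429, 0.00677 and 0.024), 3 of 6 beside 1.58% of all tested genes. Foxp3 had 10934 to 15997 counts in WT and 13336 to 16437 in Exon2KO (log2 fold change 0.19, edgeR adjusted p = 0.693). Gene counts cannot show whether its exon is missing, so the genotype labels were not checked here. These are bulk samples, in which fewer cells of a type and less RNA per cell cannot be told apart.

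Of the 10 receptor chains, 3 were called at an adjusted p under 0.05 in edgeR's quasi-likelihood test. Il10ra, the ligand-binding chain for IL-10, was at 46.2% of its WT level. The chains of the interferon gamma receptor moved in opposite directions: Ifngr1 was at 79.2% of its WT level, and Ifngr2 was 1.42-fold higher. The count of 3 of 10 stands beside 2.33% of all tested genes called in this comparison; 2 of 10 were lower (1.58% of all tested genes) and 1 was higher (0.757%). Their log2 fold changes had a median of -0.01, beside 0.008 for all tested genes.

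Same-numbered WT and Exon2KO libraries deviated together from their group means, so the column number was also fitted as a replicate block. With the block 5 of the 10 chains were called, beside 9.72% of all tested genes. Il10rb joined the lower chains, 3 of 10 beside 5.79%, and Il6ra joined the higher chains, 2 of 10 beside 3.93%. CPM values of the genotypes did not overlap for 4 chains, Il10ra, Il10rb, Ifngr1 and Ifngr2, beside 17.7% of all tested genes.

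**Figure D1:**
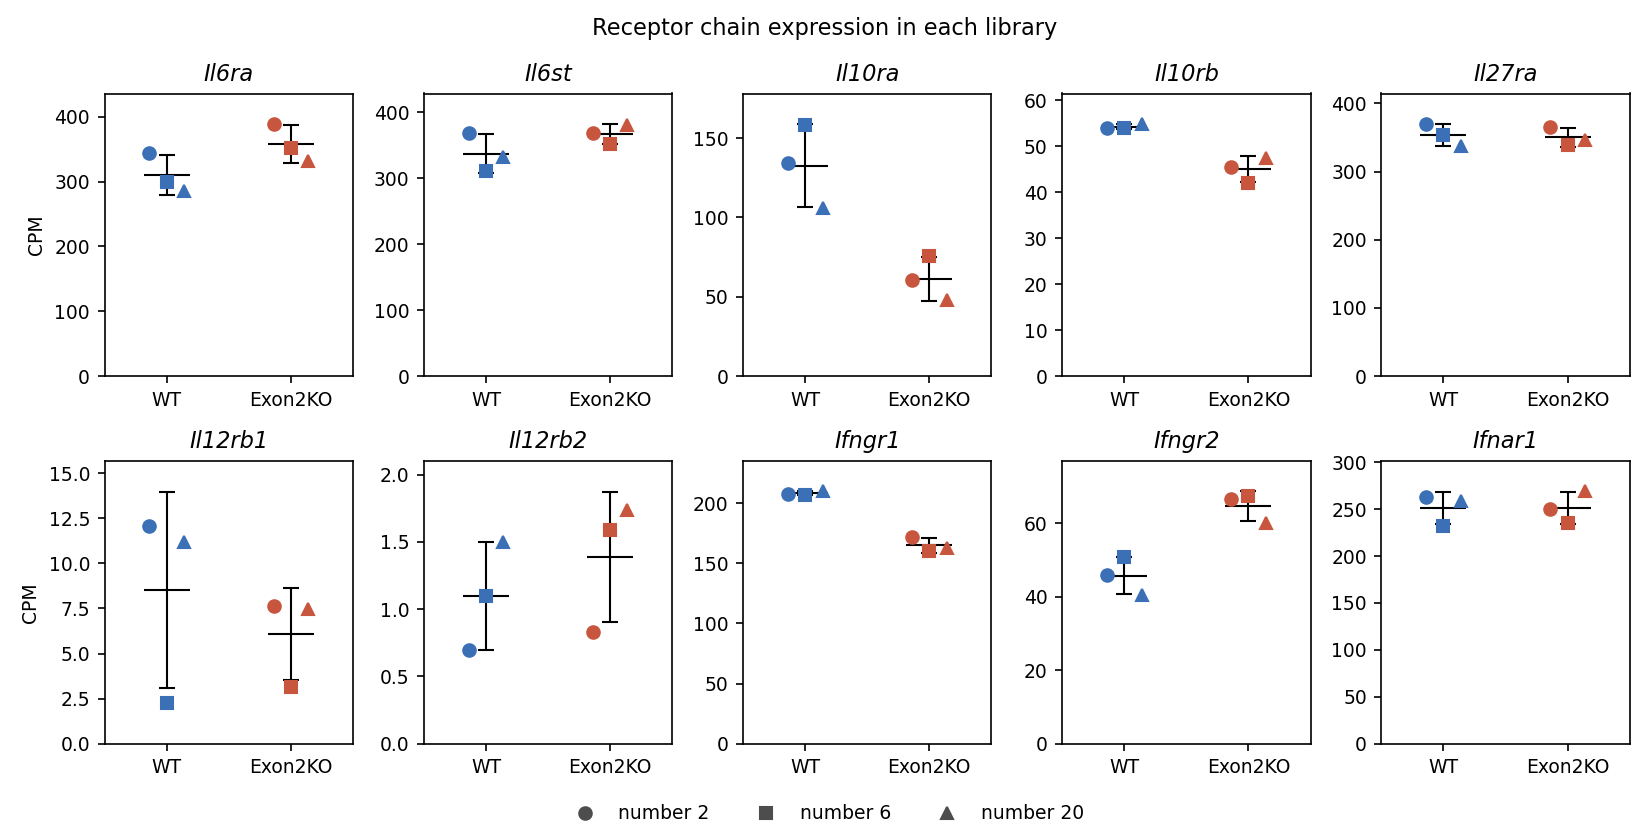
Expression of the 10 receptor chains in CPM (linear axes from 0), 1 panel per gene. Points are libraries, their shape gives the column number, horizontal bars are group means and whiskers are 1 SD (n = 3). Il10ra, Il10rb and Ifngr1 are lower and Ifngr2 is higher in each Exon2KO library than in each WT library.

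**Figure D2:**
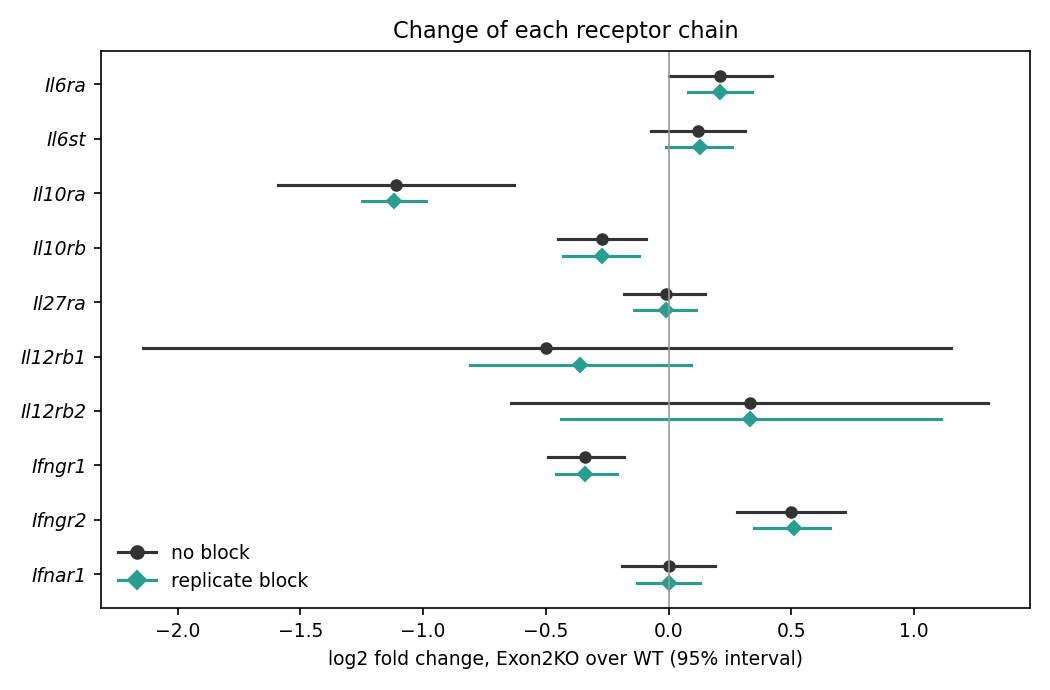
Log2 fold change of each receptor chain, Exon2KO over WT, with its 95% interval from edgeR, without a block (black circles) and with the column number as a replicate block (green diamonds). Intervals of Il10ra, Il10rb, Ifngr1 and Ifngr2 lie on 1 side of 0 in both fits, and those of Il12rb1 and Il12rb2 are the widest.

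The interferon gamma receptor is shown first by the sequence before its genes, because its chains changed in opposite directions. The windows run from 250 bases before to 50 bases after the RefSeq start, from RefSeq on build GRCm38.p6; 6 of the 10 receptor genes had an entry. Capitals mark the GC box GGGCGG, searched on both strands, where matches may share a base.
Ifngr1 (chr10:19591699-19591998, plus strand): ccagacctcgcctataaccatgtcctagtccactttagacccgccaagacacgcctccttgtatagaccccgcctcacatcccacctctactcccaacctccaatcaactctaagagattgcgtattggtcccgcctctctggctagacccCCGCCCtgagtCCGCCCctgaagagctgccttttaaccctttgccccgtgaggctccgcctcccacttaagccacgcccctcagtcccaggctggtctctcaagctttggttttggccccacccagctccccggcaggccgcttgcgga
Ifngr2 (chr16:91546809-91547108, plus strand): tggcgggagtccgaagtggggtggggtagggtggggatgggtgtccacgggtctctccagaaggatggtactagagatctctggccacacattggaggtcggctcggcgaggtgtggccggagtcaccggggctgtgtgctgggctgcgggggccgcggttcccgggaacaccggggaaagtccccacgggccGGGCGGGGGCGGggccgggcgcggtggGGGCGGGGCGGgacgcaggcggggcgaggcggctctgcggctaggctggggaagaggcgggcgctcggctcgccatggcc
The Ifngr1 window has 2 GC boxes and 60.3% G or C, and the Ifngr2 window has 4, of which the last pair shares a base, and 74.3%. A GC box occurs in 35.7% of 32851 RefSeq promoter windows of 300 bases, whose median G and C content is 52.7%. Among the other 4 windows there are 3 GC boxes in Il6st, 4 in Ifnar1 and none in Il6ra and Il12rb2. Neither printed window contains TAAACA, the core of sites that forkhead factors such as Foxp3 can bind, searched on both strands (13.4% of windows); among the other 4 it occurs once, in Il12rb2. A match describes the letters, not a bound site.

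Ifngr1 (ENSMUSG00000020009, chromosome 10, 19591949 to 19610229, plus strand, GRCm38) encodes the chain that binds interferon gamma. It was measured at 208, 207 and 210 CPM in WT 2, 6 and 20, and at 172, 160 and 163 CPM in Exon2KO 2, 6 and 20. The WT libraries lay within a few CPM of each other and above each Exon2KO library. Mean levels were 208 ± 1.44 CPM in WT and 165 ± 6.55 CPM in Exon2KO (SD, n = 3 each); edgeR gave -0.34 on the log2 scale (SE 0.07, adjusted p = 0.0382). The call was lost in each of the 6 fits that left out 1 library, where the edgeR adjusted p ran from 0.0884 to 0.124, and without both libraries numbered 20 (0.118), while the log2 fold change stayed between -0.37 and -0.32; with the block the adjusted p was 0.00134.

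Ifngr2 (ENSMUSG00000022965, chromosome 16, 91547072 to 91565623, plus strand) encodes the signalling chain, whose level is known to set how strongly T cells respond to interferon gamma. Its levels were 45.8, 50.7 and 40.6 CPM in WT 2, 6 and 20, and 66.7, 67.3 and 60.1 CPM in Exon2KO 2, 6 and 20. The highest WT library was below the lowest Exon2KO library, and libraries numbered 20 were the lowest in both genotypes. Group means of 45.7 ± 5.07 and 64.7 ± 4.01 CPM (SD, n = 3 each) corresponded to 0.50 on the log2 scale in edgeR (SE 0.10, adjusted p = 0.0339). Without WT 2, WT 20, Exon2KO 2 or Exon2KO 6 the edgeR adjusted p rose to 0.133, 0.0839, 0.184 and 0.114; the log2 fold change ran from 0.42 to 0.59 over the other settings, and with the block the adjusted p was 0.00021.

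The balance between these chains was also described within each library, where library size cancels. Counts per base of Ifngr1 exceeded those of Ifngr2 by 5.99, 5.41 and 6.84 times in WT 2, 6 and 20, and by 3.42, 3.14 and 3.60 times in Exon2KO 2, 6 and 20. The ratio was lower in each Exon2KO library than in each WT library, and Ifngr1 stayed the more abundant chain in all 6. The mean log2 ratio was 2.60 ± 0.17 in WT and 1.76 ± 0.10 in Exon2KO (SD, n = 3 each), a difference of -0.84. An exact two-sided permutation test gave p = 0.1, the smallest value 3 against 3 libraries allow, and 0.2 after adjustment over the 8 ratios computed. Ifngr1 was lower and Ifngr2 higher in each Exon2KO library, so the ratio had to separate the groups. Its p-value was thereby fixed, and the ratio restates the changes of the 2 chains without adding support.

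Il10ra (ENSMUSG00000032089, chromosome 9, 45253837 to 45269149, minus strand), the chain that binds IL-10, had the largest change among the called members. It was measured at 134, 158 and 106 CPM in WT 2, 6 and 20, and at 60.4, 75.5 and 47.8 CPM in Exon2KO 2, 6 and 20. In both genotypes the library numbered 6 was the highest and the library numbered 20 the lowest, and the groups did not overlap. Means were 133 ± 26.0 CPM in WT and 61.2 ± 13.9 CPM in Exon2KO (SD, n = 3 each), and the edgeR log2 fold change was -1.11 (SE 0.20, adjusted p = 0.0451).

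Within same-numbered libraries the Il10ra log2 difference was -1.15, -1.06 and -1.15 for numbers 2, 6 and 20, a smaller spread than within either genotype. With the block the SE fell to 0.06 and the edgeR adjusted p was 1.94e-08. The call was lost without a count filter (edgeR adjusted p = 0.224) and without WT 2, WT 6 or Exon2KO 2 (0.166, 0.131 and 0.199), and the log2 fold change ran from -1.30 to -0.97 over the other settings. The processed pseudogene Gm20612 lies inside Il10ra on the opposite strand with 59 counts in all, against 11027 for Il10ra, and had a log2 fold change of -1.13; the strand setting of the counting is not given, so reads of the pair may be mixed.

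Il10rb (ENSMUSG00000022969, chromosome 16, 91406164 to 91425834, plus strand) encodes the partner chain, which receptors for IL-22 and interferon lambda also use. Its levels were 53.9, 54.0 and 54.9 CPM in WT 2, 6 and 20, and 45.6, 42.0 and 47.5 CPM in Exon2KO 2, 6 and 20. The WT values were nearly equal and the groups did not overlap. The log2 fold change of -0.27 (SE 0.08, 95% interval -0.45 to -0.09) was not called without the block (edgeR adjusted p = 0.163) and was called with it (-0.27, SE 0.07, edgeR adjusted p = 0.0273). That call was lost in the blocked fit without both libraries numbered 20 (-0.30, edgeR adjusted p = 0.0657). On the same strand, 13288 bases of the Il10rb gene are shared with the annotated gene Gm21970, which had 0 counts. The handling of reads in shared bases is not given, so Il10rb may be underestimated per base.

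Il10ra was more abundant per base than Il10rb in each library, by 2.71, 3.17 and 2.10 times in WT 2, 6 and 20 and by 1.44, 1.96 and 1.10 times in Exon2KO 2, 6 and 20. The WT ratios were higher than the Exon2KO ratios without overlap, though WT 20 and Exon2KO 6 were close. The log2 ratio differed by -0.85 (exact permutation p = 0.1, adjusted 0.2). Il10 itself, which encodes the ligand, varied from 69 to 340 counts and its change was not called (log2 fold change -0.06, SE 0.63, edgeR adjusted p = 0.991).

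**Figure D3:**
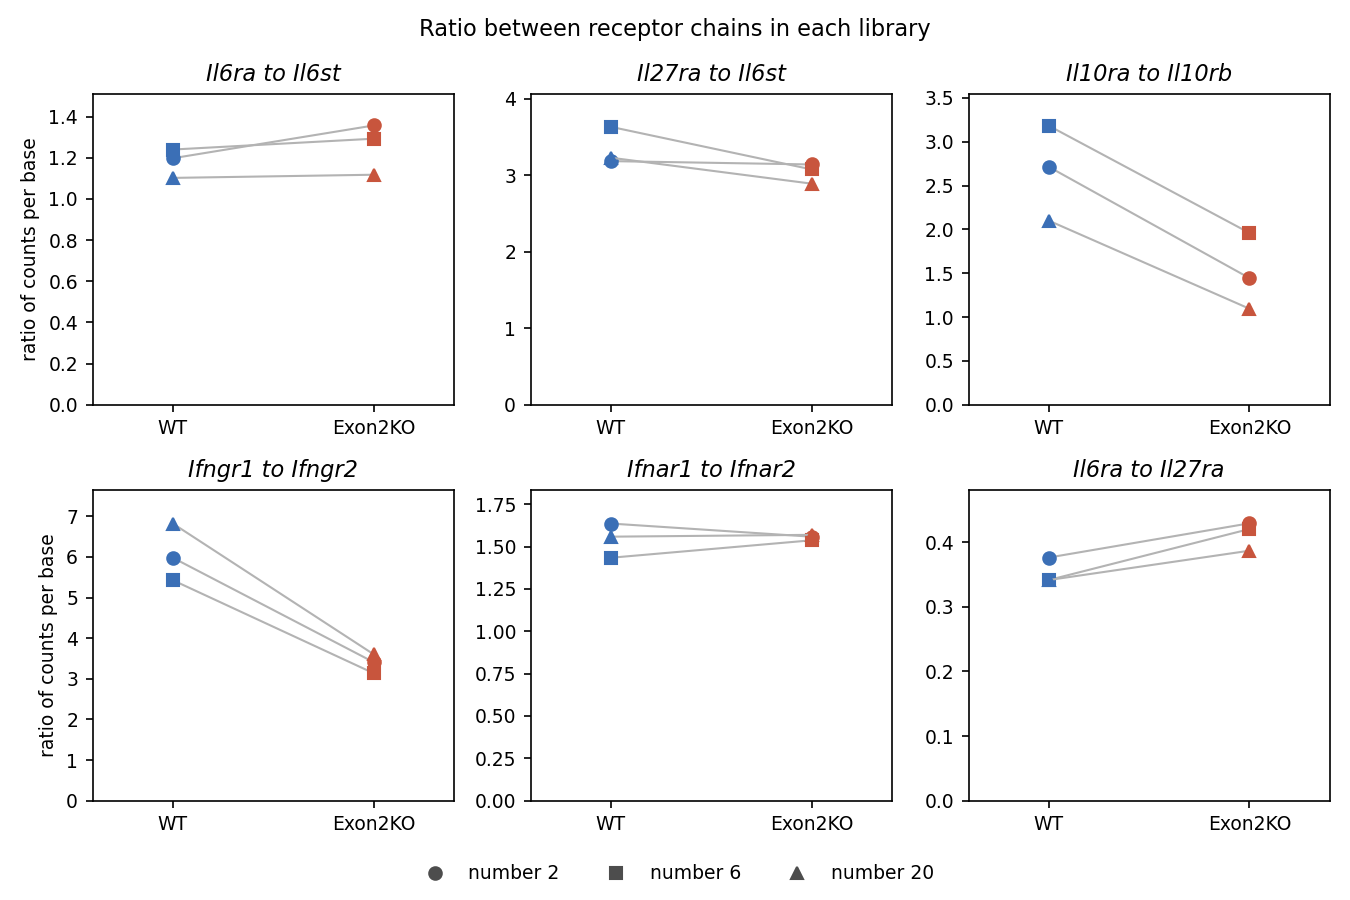
Ratio of counts per base between receptor chains in each library, for the 6 of 8 chain pairs that do not involve Il12rb2 (linear axes from 0). Grey lines join libraries with the same column number, given by the marker shape. The Ifngr1 to Ifngr2 and Il10ra to Il10rb ratios are lower in each Exon2KO library than in each WT library, and the Ifnar1 to Ifnar2 ratio overlaps between genotypes.

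The gp130 family chains were abundant. Il6ra (ENSMUSG00000027947, chromosome 3, 89864059 to 89913196, minus strand), which gives a cell its IL-6 binding site, was measured at 344, 299 and 285 CPM in WT 2, 6 and 20, and at 389, 352 and 332 CPM in Exon2KO 2, 6 and 20. In both genotypes number 2 was the highest and number 20 the lowest, and the groups overlapped. Within each same-numbered pair Exon2KO was higher, by 0.18, 0.24 and 0.22 on the log2 scale. The log2 fold change of 0.21 (SE 0.10) was not called without the block (edgeR adjusted p = 0.426) and was called with it (0.21, SE 0.06, edgeR adjusted p = 0.036). In the blocked fit without both libraries numbered 20 it was again not called (0.21, edgeR adjusted p = 0.135).

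Il6st (ENSMUSG00000021756, chromosome 13, 112464070 to 112510086, plus strand), the shared signalling chain gp130, was measured at 369, 310 and 332 CPM in WT 2, 6 and 20, and at 369, 351 and 381 CPM in Exon2KO 2, 6 and 20. The groups overlapped. Its log2 fold change was 0.12 (95% interval -0.07 to 0.31, edgeR adjusted p = 0.681), and 0.13 with the block (adjusted p = 0.275).

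Il27ra (ENSMUSG00000005465, chromosome 8, 84030294 to 84042589, minus strand) binds IL-27 together with gp130. Its levels were 370, 354 and 338 CPM in WT 2, 6 and 20, and 366, 339 and 346 CPM in Exon2KO 2, 6 and 20. The libraries interleaved, and the log2 fold change of -0.01 had a 95% interval of -0.18 to 0.15 (edgeR adjusted p = 0.975).

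Il6ra and Il27ra both pair with gp130, so their balance was compared within libraries. Il6ra amounted to 0.376, 0.341 and 0.341 of Il27ra per base in WT 2, 6 and 20, and to 0.430, 0.420 and 0.387 in Exon2KO 2, 6 and 20. The Exon2KO ratios were above the WT ratios without overlap, a log2 difference of 0.22 (exact permutation p = 0.1, adjusted 0.2). Il27ra relative to Il6st ran from 3.18 to 3.63 in WT and from 2.89 to 3.15 in Exon2KO, a log2 difference of -0.14 with the same p-values. Leaving out single libraries moved the latter difference to between -0.18 (without WT 2) and -0.08 (without WT 6). The Il6ra to Il6st ratio, from 1.10 to 1.35, overlapped between genotypes (log2 difference 0.08, exact permutation p = 0.4, adjusted 0.64) and was higher in Exon2KO in 3 of 3 same-numbered pairs (exact sign-flip p = 0.25). Its log2 difference was 0.03 without Exon2KO 2 and 0.16 without Exon2KO 20.

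The IL-12 receptor chains were the least abundant members. Il12rb1 (ENSMUSG00000000791, chromosome 8, 70808449 to 70821424, plus strand), which the IL-23 receptor also uses, was counted 226, 41 and 239 times in WT 2, 6 and 20 and 137, 61 and 133 times in the same-numbered Exon2KO libraries. Both libraries numbered 6 were low, at 2.26 and 3.13 CPM, and the other libraries lay between 7.48 and 12.1 CPM. The spread followed the column number more than the genotype: the log2 fold change was -0.50 (SE 0.67, edgeR adjusted p = 0.883) without the block and -0.36 (SE 0.21, adjusted p = 0.365) with it. The 95% interval reached from -2.14 to 1.15 without the block and from -0.81 to 0.09 with it. Without single libraries the log2 fold change ran from -0.94 to -0.16.

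Il12rb2 (ENSMUSG00000018341, chromosome 6, 67291318 to 67376188, minus strand), the inducible signalling chain of the IL-12 receptor and a marker of type 1 helper cells, was counted 13, 20 and 32 times in WT 2, 6 and 20 and 15, 31 and 31 times in the same-numbered Exon2KO libraries. The groups overlapped (log2 fold change 0.33, SE 0.43, edgeR adjusted p = 0.875). The gene shares 6419 bases with Serbp1 on the opposite strand, which had 54176 counts in all against 142 for Il12rb2, so these counts are uncertain. Il12rb2 was at 0.0645 to 0.554 of Il12rb1 per base, highest in both libraries numbered 6, with a log2 difference of 0.59 between genotypes (exact permutation p = 0.7, adjusted 0.8), and at 0.00181 to 0.00471 of Il27ra (log2 difference 0.34, exact permutation p = 0.5, adjusted 0.667). Both ratios were higher in Exon2KO in 3 of 3 same-numbered pairs; the exact sign-flip permutation test over pairs gave p = 0.25, the smallest 3 pairs allow. Single libraries moved these values: the difference against Il12rb1 was -0.12 without WT 2 and 1.41 without WT 6, that against Il27ra was 0.03 without WT 2 and 0.70 without Exon2KO 2, and the Il12rb2 log2 fold change ran from 0.09 without WT 2 to 0.62 without WT 20.

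Ifnar1 (ENSMUSG00000022967, chromosome 16, 91485238 to 91507441, plus strand), a chain of the type I interferon receptor, was measured at 263, 232 and 259 CPM in WT 2, 6 and 20, and at 250, 235 and 269 CPM in Exon2KO 2, 6 and 20. Libraries numbered 6 were the lowest in both genotypes and the groups overlapped. Its log2 fold change was 0.00 with a 95% interval of -0.19 to 0.19 (edgeR adjusted p = 1). The Ifnar1 to Ifnar2 ratio per base, from 1.43 to 1.64, differed by 0.02 on the log2 scale (exact permutation p = 0.8, adjusted 0.8).

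Ifnar2, Il10rb, Ifnar1 and Ifngr2 follow each other on the plus strand of chromosome 16 within 192841 bases (91372783 to 91565623), which holds 12 annotated genes, 5 of them tested. In this order along the chromosome the 4 receptor genes had log2 fold changes of -0.01, -0.27, 0.00 and 0.50, and the fifth tested gene, the long noncoding A930006K02Rik between Il10rb and Ifnar1, had -0.26 (SE 0.25). Among them Ifngr2 was the gene called without the block. The annotated readthrough gene Gm21970, which joins Ifnar2 and Il10rb and overlaps both on the same strand, had 0 counts in each library. How reads in shared bases were counted is not given, so these 0 counts do not show whether readthrough transcripts were present. For the same reason Ifnar2 and Il10rb may be underestimated per base, also in their ratios to other chains and in the order of levels.

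Levels of different genes were compared per length, as counts per 1000 bases of gene and per 1000000 counts (RPKM). Over all 6 libraries Il27ra was the most abundant chain (101 ± 4.24 RPKM, SD, n = 6) and stood above 97.2% of the tested genes. It was followed by Ifngr1 (65.6 ± 9.31), Ifnar1 (42.2 ± 2.77), Il6ra (38.5 ± 4.02), Il6st (31.7 ± 2.26), Il10ra (27.8 ± 12.6), Ifngr2 (14.6 ± 2.77) and Il10rb (13.0 ± 1.58). Il12rb1 (1.78 ± 1.00) and Il12rb2 (0.327 ± 0.112) came last, and Il12rb2 stood above 7.8% of the tested genes. These SDs include the difference between genotypes. The ranges of Il27ra and Ifngr1, Ifngr1 and Ifnar1, Il10rb and Il12rb1, and Il12rb1 and Il12rb2 did not overlap, while the neighbours from Ifnar1 to Il10rb overlapped.

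The order differed between genotypes for 2 of the called chains. Il10ra was at 38.3 ± 7.28 RPKM in WT, next to Il6ra (36.2 ± 3.64), and at 17.3 ± 3.90 RPKM in Exon2KO (SD, n = 3 each), next to Ifngr2 (16.9 ± 1.04). Ifngr2 was below Il10rb in WT (12.3 ± 1.29 against 14.4 ± 0.204 RPKM) and above it in Exon2KO (16.9 ± 1.04 against 11.7 ± 0.736 RPKM).

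**Figure D4:**
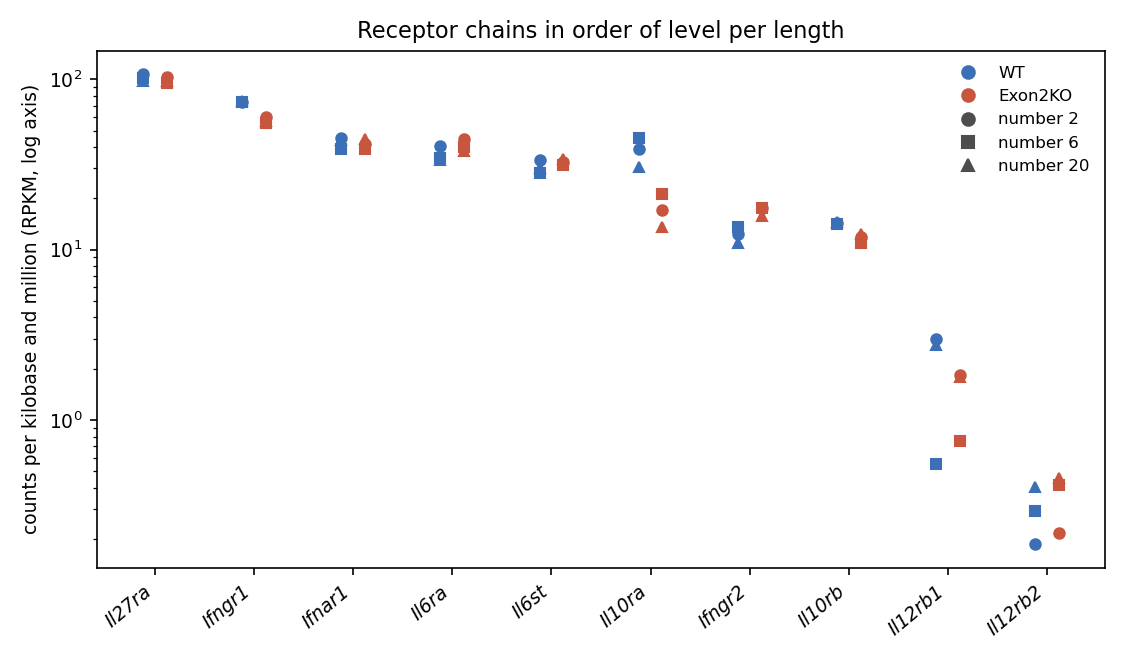
RPKM of the 10 receptor chains in each library on a log axis, ordered by the mean over the 6 libraries. Colour gives the genotype and marker shape the column number. Il27ra is the highest chain, Il12rb1 and Il12rb2 are far below the others, and Il10ra has the widest range among the 8 abundant chains, from 13.5 to 45.2 RPKM.

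Other genes of these pathways were read from lists and gave few calls in the fit without the block. In that fit 2.33% of all tested genes were called. Among 6 tested of 14 other receptor chains none was called higher or lower; Ifnar2 had a log2 fold change of -0.01, and Il23r, with 1 to 42 counts, had 1.41 (SE 0.98, edgeR adjusted p = 0.696). Of 7 Janus kinase and STAT genes none was called (median 0.06), nor of 12 negative regulators (median 0.00) or 4 tested receptor shedding genes (median -0.03). With the block, 1 of the 7 kinases and STATs, Jak2, was called higher (0.27, edgeR adjusted p = 0.0203), and 4 of the 12 negative regulators were called: Usp18 higher (0.21, adjusted p = 0.0477) and Socs2, Cish and Pias3 lower (-0.34, -0.34 and -0.32), beside 3.93% of all tested genes higher and 5.79% lower. These 5 genes are named after their values were seen. Jak2 is the kinase bound to Ifngr2 and Il12rb2, and Socs2 and Cish are feedback genes of STAT5 signalling.

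Among 6 tested of 16 cytokine genes 1, Ebi3, was called lower, beside 1.58% of all tested genes. It encodes a subunit that IL-27 shares with IL-35, and its counts were 379, 301 and 493 for WT 2, 6 and 20 against 138, 140 and 139 for the same-numbered Exon2KO libraries. The groups did not overlap (log2 fold change -1.41, SE 0.16, edgeR adjusted p = 0.00268). Its partner genes Il27 and Il12a had at most 2 counts in any library, at or under the smallest level shown. Il6, Il12b and Ifnb1 had 0 to 2 counts, and Ifng had 40 to 239 counts which edgeR estimated at 0.47 on the log2 scale (SE 0.60, adjusted p = 0.872).

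Genes known to respond to these receptors were read the same way. Of 14 tested interferon gamma response genes 1 was called, Gbp3, a guanylate-binding protein gene, counted 2538, 2239 and 2419 times in WT 2, 6 and 20 and 1402, 1375 and 1082 times in the same-numbered Exon2KO libraries. It was lower in each Exon2KO library (log2 fold change -0.83, SE 0.11, edgeR adjusted p = 0.00475); without the block 1.58% of all tested genes were called lower. The median of the list was -0.05, with 6 positive and 8 negative values. With the block 4 of the 14 were called lower and none higher, beside 5.79% and 3.93% of all tested genes.

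Of 12 tested STAT3 response genes, Batf, a factor of type 17 and effector Treg cells, was called lower (log2 fold change -0.58, SE 0.12, edgeR adjusted p = 0.0459), 1 of 12 beside 1.58% of all tested genes. Il17a was counted 0, 0 and 1 times in WT libraries and 14, 16 and 11 times in Exon2KO libraries (edgeR adjusted p = 0.0177); it passed the count filter through Exon2KO alone, so its call supports nothing about the list. The list had a median of -0.09, and Socs3, a direct feedback gene of STAT3, had 0.19 (SE 0.12, edgeR adjusted p = 0.641). That median includes Il17a and Il21, which had at most 13 counts in any WT library and more in each Exon2KO library. None of the 9 tested type 1 response genes was called (median 0.19), with 1 of 9 higher and 2 of 9 lower under the block (3.93% and 5.79% of all tested genes), where the median was -0.02. None of the 15 type I interferon response genes was called (median 0.18, 14 positive); with the block 6 of the 15 were called higher, beside 3.93% of all tested genes.

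**Figure D5:**
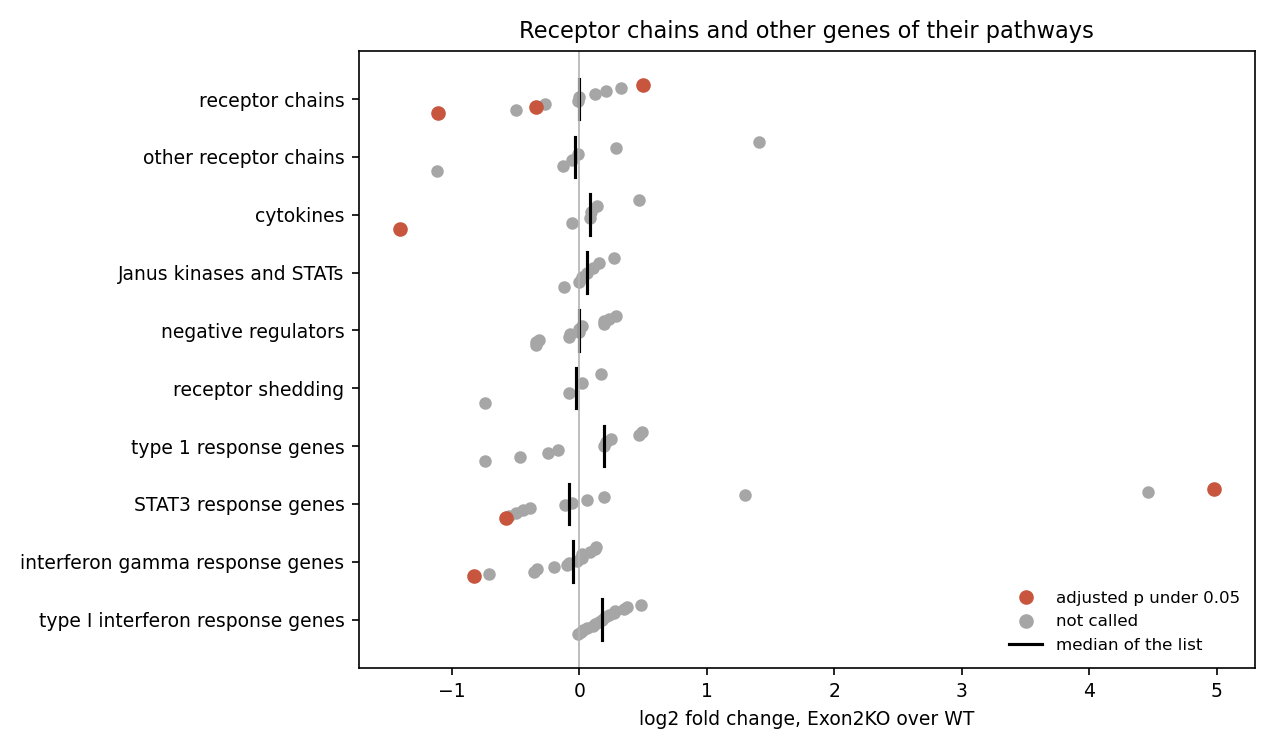
Log2 fold change, Exon2KO over WT, of the tested genes of 10 lists, 1 point per gene, in the edgeR fit without a block. Red points passed an adjusted p under 0.05, grey points did not, and black bars are list medians. Il10ra, Ifngr1 and Ifngr2 are the red points among the receptor chains; Ebi3, Batf, Il17a and Gbp3 are those of the other lists.

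Blood cells other than Tregs also express these receptors, so their marker genes were summed. B cell markers, 6 of 6 tested with none called without the block, summed to 38.6 to 44.7 CPM in WT and 31.6 to 34.3 CPM in Exon2KO, without overlap; Cd79b had the most counts of them and a log2 fold change of -0.51 (edgeR adjusted p = 0.0828). Myeloid markers, 5 of 8 tested and none called without the block, summed to 18.6 to 50.3 CPM in WT and 15.6 to 38.1 CPM in Exon2KO, and CD8 T and NK cell markers to 23.8 to 26.1 and 25.7 to 37.3 CPM. The myeloid genes Cd14, Mpo and Clec9a had at most 15 counts in any library. Erythroid and platelet markers summed to 8.12 to 20.4 and 10.2 to 17.6 CPM. Stromal and endothelial markers summed to 164 to 190 and 188 to 225 CPM, nearly all of it Pecam1, with Col3a1 at 0. Counts per library were 0 to 6 for Cdh5, 0 to 3 for Pdgfrb and 6 to 63 for Col1a1, against 2963 to 4043 for Pecam1. That sum is therefore the level of Pecam1 rather than of the group. With the block, Cd79b and the myeloid gene Lyz2 were called lower (-0.51 and -0.40, edgeR adjusted p = 0.00501 and 0.0413) and Pecam1 higher (0.23, adjusted p = 0.0164). The part of these cells in the lower Il10ra and Ifngr1 levels was not tested.

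In the authors' deposited table the same 3 chains had an adjusted p under 0.05. That table lists log2 fold changes of -1.11 for Il10ra (adjusted p = 5.35e-08), -0.33 for Ifngr1 (0.00628) and 0.50 for Ifngr2 (0.00345). Il10rb had -0.27 with an adjusted p of 0.238 in the authors' deposited table, and Il6ra 0.21 with 0.479.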

How the data were processed

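RNA was sequenced from 6 Treg libraries, 3 per genotype. The submitters' processing notes name HISAT2 2.0.5, StringTie 1.3.3b, featureCounts 1.5.0-p3, DESeq2 1.16.1 and the build mm10, with no role or order; the strand setting is not given in the sources used here. Per the file headers, the authors deposited raw counts, FPKM values and a comparison with each group's mean scaled count signal, log2 fold change, p-value and adjusted p-value. The 6 FPKM columns were not used here. Levels between genes were ordered by RPKM computed from the deposited counts, total counts and gene lengths. Gene positions of all 10 receptor genes equal those of GENCODE mouse release 21 (GRCm38).

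Counts were tested with edgeR 4.0.16 (R 4.3.3): filterByExpr, TMM, robust quasi-likelihood fit, all 6 libraries, no covariate, Benjamini-Hochberg adjustment over 14919 genes. CPM use TMM-scaled library sizes. Each SE is the absolute log2 fold change divided by the square root of F. Log2 ratios between chains used counts plus 0.5, corrected for gene length, with a two-sided exact permutation test over 20 splits. Columns carry the numbers 2, 6 and 20; deviations of same-numbered libraries correlated across genes at 0.271, 0.369 and 0.494, so the number was also fitted as a replicate block. No label says what it stands for. Replicate libraries differed beyond counting noise (chi-square per degree of freedom 8.87 to 26.4).

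The receptor genes, gene lists and tests were chosen with earlier results of these data known. Named genes are the receptor genes, at most 4 called genes per list, partner chains, and the 2 genes most like each called receptor gene. Other genes, such as uncalled cytokine, feedback and marker genes, were named after their values were seen. Other settings were RLE and upper-quartile scaling, every gene with a count, a minimum of 10 counts in each library, DESeq2 1.42.0, limma-voom (limma 3.58.1), the replicate block, autosomal genes without antigen receptor segments, leaving out each library and both libraries numbered 20. The block without libraries numbered 20 was added after seeing the data. Scripts were tested on simulated data.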

Additional observations from a re-analysis of the deposited data

How the results depend on the processing

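Called genes, 348 in all, numbered 617 without a count filter, 667 with DESeq2, 1450 with the replicate block and 900 with the block but without libraries numbered 20; leaving out 1 library gave 86 to 314. The count of called receptor chains rose from 3 to 5 with the replicate block, was 3 with the block but without libraries numbered 20 (Il6ra and Il10rb lost their calls), and ran from 0 to 2 when 1 library was left out. Their median of -0.01 ran from -0.03 to 0.02 over those fits. Ifnar1, at 0.00, changed sign with RLE, DESeq2 and the replicate block (each 0.00) and between -0.06 and 0.04 without single libraries, where Il27ra ran from -0.05 to 0.01. Without single libraries the log2 ratio of Il12rb2 to Il12rb1 ran from -0.12 to 1.41 and that of Ifnar1 to Ifnar2 from -0.04 to 0.06. Of 160 receptor values under 16 settings, 136 kept direction and side of the threshold, 15 lost a call, 2 gained one and 7 changed sign; the causes were not tested. With 3 pairs, the sign-flip test of a chain ratio cannot go below 0.25. Counts of 13 to 32 limit Il12rb2.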

Other observations

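Among 9365 protein-coding genes with a mean of at least 5 CPM, the genes whose log2 CPM followed a called receptor chain most closely over the 6 libraries were Rasgef1a and Pear1 for Il10ra (Pearson r = 0.992 for both), Gprasp2 and Tspan3 for Ifngr1 (0.992 and 0.99), and Hpcal1 and Apol7e for Ifngr2 (0.998 and 0.995). These correlations describe 6 libraries that include the genotype difference, and the genes were picked as the highest of many. Their own log2 fold changes were -1.03, -0.86, -1.65, -0.53, 0.29 and 0.75.

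Of the cytokines that signal through gp130, leaving aside the IL-27 subunit gene Ebi3, Osm and Lif had the most counts in these Tregs. Osm had 601 to 704 counts in WT and 634 to 787 in Exon2KO (log2 fold change 0.14, edgeR adjusted p = 0.784). Lif was counted 213, 181 and 507 times in WT 2, 6 and 20 and 205, 193 and 483 times in the same-numbered Exon2KO libraries, so both libraries numbered 20 were high. Its log2 fold change was 0.09 (edgeR adjusted p = 0.977). Their specific receptor chains Osmr and Lifr had 0 counts and 0 to 9 counts per library.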
